A study of Mus musculus with 3 samples.

Results

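The genes described here are 42 genes of mitosis, the kinetochore and the spindle checkpoint, listed by function, out of 19938 genes measured in ureteric duct cells of the mouse embryo. Each of the 42 had a probe set of its own on the array, and a gene with several probe sets was represented by the brightest, which mattered only for Top2a. The cells came from CD-1 embryos at 10.5 dpc (Theiler stage 18) carrying the transgene Tg(Hoxb7-EGFP)33Cos, in which the Hoxb7 promoter drives green fluorescent protein in the nephric duct and its outgrowths, and were isolated by microdissection, trypsin and fluorescence sorting. The 3 arrays form 1 group with no control, 1 duct was used per sample, and RNA went through 1 round of amplification. Nothing in the labels says that the ducts came from separate litters. The p-values therefore reflect only these arrays, whose variation may in part be technical, and a spread pooled over their probe sets. In sorted bulk material, fewer dividing cells and less mitotic RNA per cell cannot be told apart.

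Mitosis separates the duplicated chromosomes into daughter cells. Condensin compacts the chromosomes, kinetochores assembled on centromeres attach them to spindle microtubules, and the spindle checkpoint delays anaphase until every kinetochore is attached. The anaphase-promoting complex then marks securin and cyclin B for destruction, separase cuts cohesin, and the cell divides. At this stage the nephric duct gives rise to the ureteric bud, and dividing duct cells supply the growth of that bud.

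All 42 genes lay above the background of their arrays (limma, one-sided, Benjamini-Hochberg adjusted p between 1.97e-06 and 0.00736). Background was the 95th percentile of 1210 receptor probe sets of olfactory and vomeronasal sensory neurons, which averaged 5.71 log2 units. Of all genes, 56.1% passed the same test. The median member lay 2.91 log2 units above the cutoff, with Cenpi lowest at 0.15 and Top2a highest at 5.08. Against the 99th percentile of the receptors, 38 of 42 members passed, beside 36.1% of all genes. With the 95th percentile raised by 1 log2 unit the counts were 36 members and 28.3% of all genes, and with it raised by 2 units they were 29 members and 13.8% of all genes. The members' median signal was 8.62, with quartiles of 7.97 and 9.30, against 6.04 over all genes, with quartiles of 5.09 and 7.18. Of the members, 25 were among the genes above the 90th percentile of signal. Signals are log2 values summarised by the authors, and since probe sets differ in affinity they do not rank transcript amounts between genes.

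**Figure D1:**
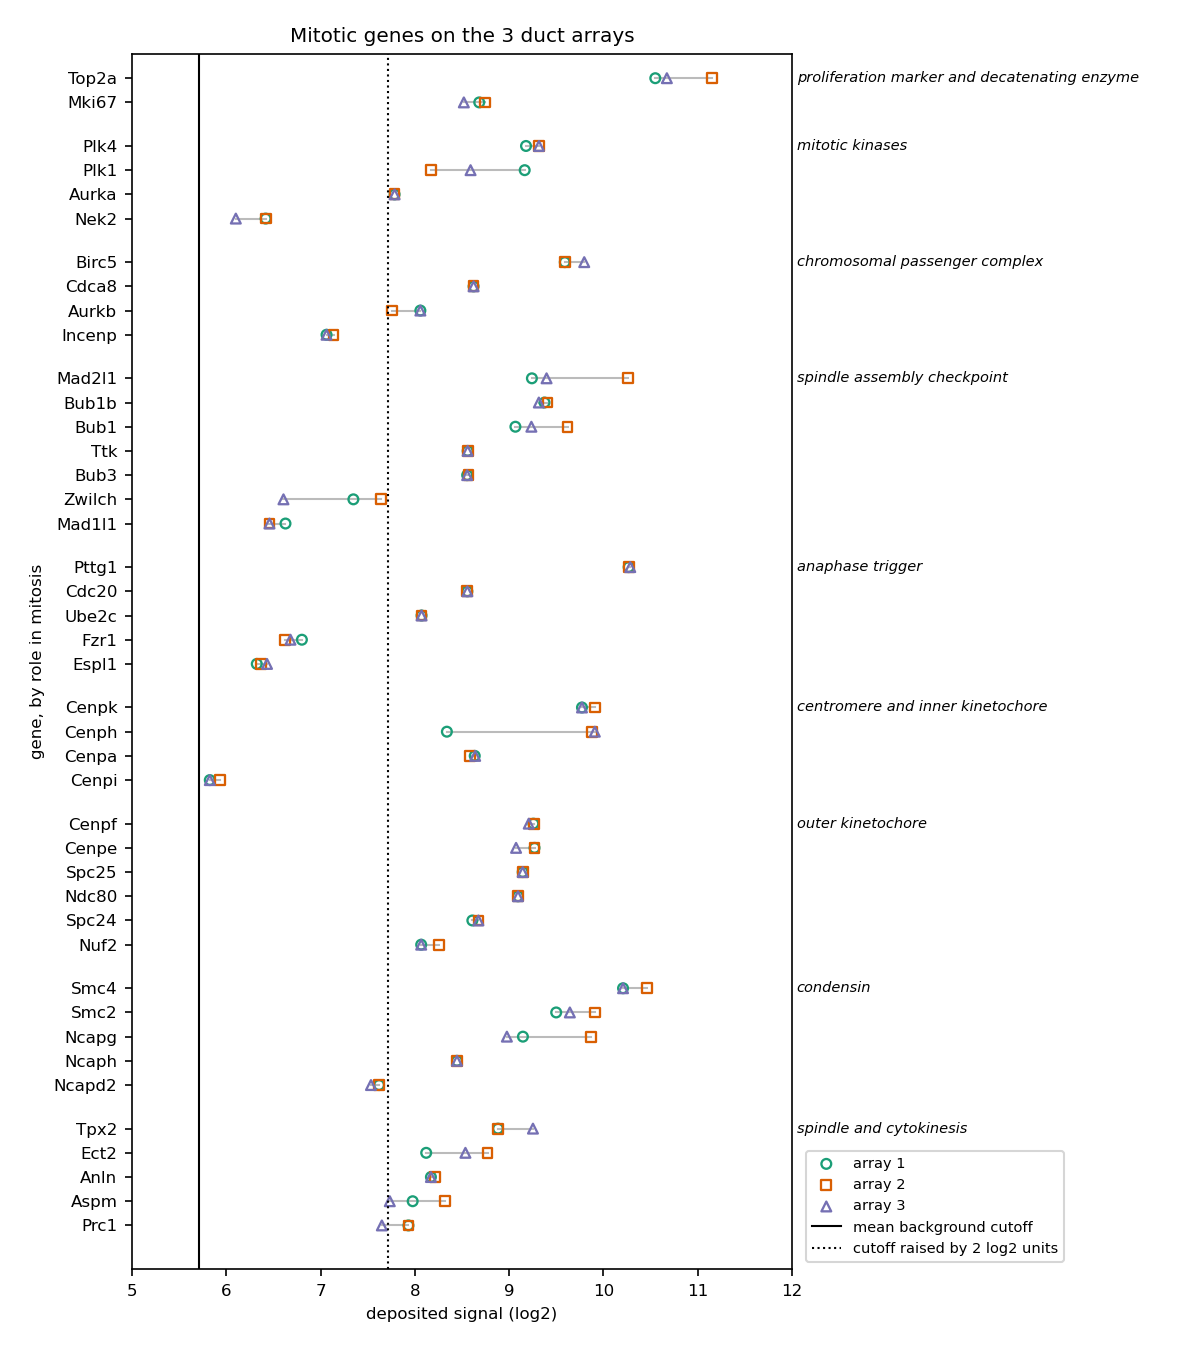
Deposited log2 signal (x axis) of each of the 42 mitotic genes (rows, grouped by role) on arrays 1, 2 and 3 (circle, square and triangle). All points lie right of the mean background cutoff at 5.71 (solid line), and Cenpi sits nearest to it.

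**Figure D2:**
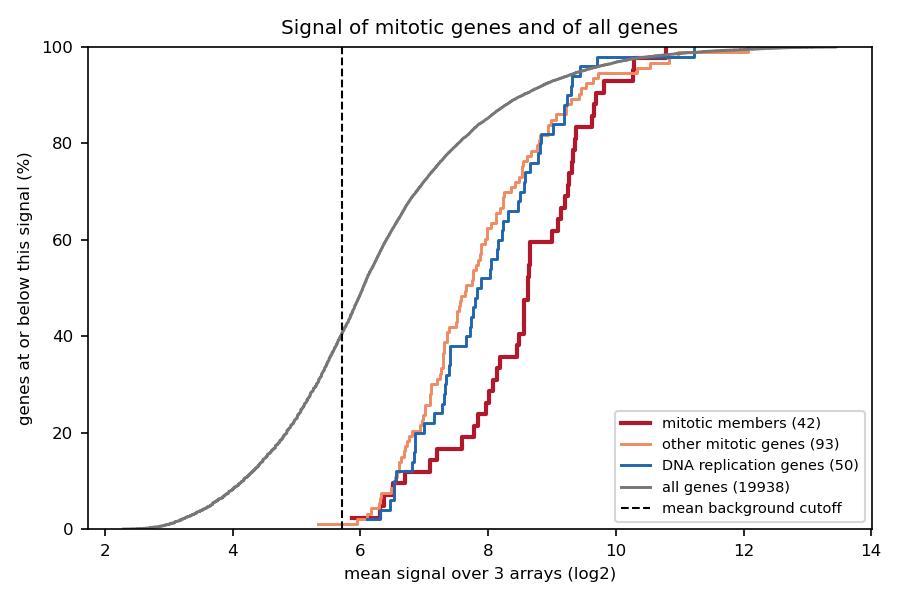
Cumulative share of genes (y axis, percent) at or below a mean log2 signal (x axis) for the 42 mitotic members, 93 other mitotic genes, 50 DNA replication genes and all 19938 genes. The curve of the members runs to the right of that of all genes, with medians of 8.62 and 6.04.

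Many promoters of mitotic genes carry the cell cycle genes homology region (CHR), which the MuvB-containing complexes bind to hold such genes silent in quiescence and to activate them before mitosis, together with CCAAT boxes bound by NF-Y. RefSeq promoter windows (GRCm38.p6), from 250 bases before to 50 after an annotated start, were at hand for 36 of the 42 members, in 42 windows, since 5 members had more than 1 start. The CHR was searched as TTTGAA and as its variant TTCGAA, and the box as CCAAT, on both strands. CHR letters were found in 26 of the 42 member windows (61.9%) and in 19.2% of all 32851 windows. CCAAT was found in 32 (76.2%) of the member windows and in 37.4% of all windows, and both motifs together in 24 (57.1%) and in 7.52%. Counted by gene, 23 of 36 members (63.9%) held CHR letters in at least 1 window, against 21.7% of all genes. Windows of 1 gene can share bases, and 1 CHR match in the members overlapped a CCAAT match. No test was made of these shares, and a match of letters is not a bound site.

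The letters of E2F sites, searched on both strands as TTCCCGC, as the variant TTGGCGC, as the variant TTCGCGC and as the variant TTGCCGC, were found in 9 of 42 member windows (21.4%), in 29 of 50 windows of DNA replication genes (58%) and in 9.57% of all windows. For 87 windows of other mitotic genes the E2F share was 29.9% and the CHR share 42.5%, and for the replication genes the CHR share was 20%. CCAAT was found in 54% of the other mitotic and 52% of the replication windows, and CHR and CCAAT together in 24.1% and 10%. TATAAA was found in 1 member window (2.38%) and in 13.6% of all windows. CHR matches in the members had a median distance of -18 bases from the start, and 24 of 35 lay within 50 bases of it. CCAAT matches lay further upstream, at a median of -72.5 bases, and 5 of 66 fell after the start. Top2a had the most CHR matches, 4, and shared the highest CCAAT count, 6, with Ube2c.

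**Figure D3:**
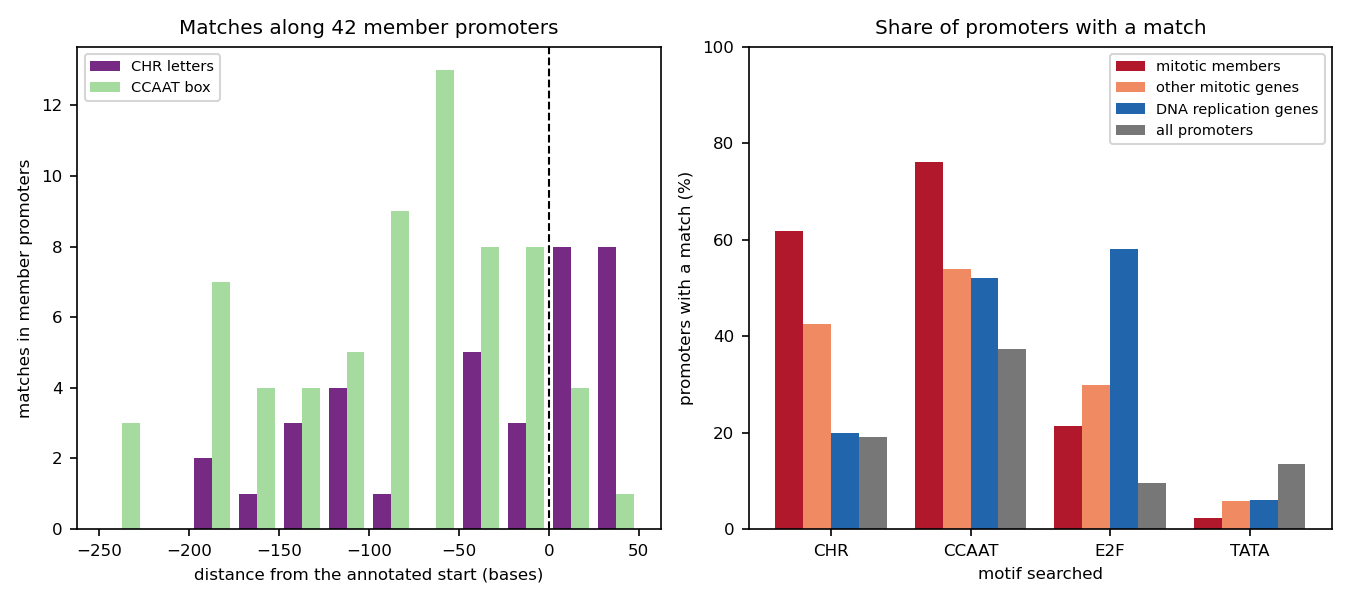
Left, number of CHR and CCAAT letter matches (y axis) by distance from the annotated start in bases (x axis, start dashed) in 42 member windows. Right, percent of windows with a match to CHR, CCAAT, E2F or TATA letters (x axis) in mitotic members, other mitotic genes, DNA replication genes and all promoters, where CHR letters were in 61.9% of member windows and 19.2% of all windows.

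The sequences below are the stretches just before the gene's outermost annotated start, 5′ to 3′ on the gene's strand, from RefSeq (GRCm38.p6), with CHR letters (TTTGAA, its variant TTCGAA and the reverse complement TTCAAA) and CCAAT boxes (also as the reverse complement ATTGG) in capitals. Top2a, Mki67, Cdc20 and Ube2c are shown because they hold both motifs there. Mad2l1, a bright member, and Cenpi, the dimmest, are shown because they hold neither before their start. These 6 were chosen after their matches were seen.
Top2a (chr11:99024200-99024439, minus strand): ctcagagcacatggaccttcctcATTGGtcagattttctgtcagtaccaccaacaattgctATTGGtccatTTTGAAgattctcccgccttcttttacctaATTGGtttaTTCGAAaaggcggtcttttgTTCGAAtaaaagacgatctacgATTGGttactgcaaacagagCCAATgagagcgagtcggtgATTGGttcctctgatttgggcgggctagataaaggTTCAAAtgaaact
Mki67 (chr7:135716451-135716629, minus strand): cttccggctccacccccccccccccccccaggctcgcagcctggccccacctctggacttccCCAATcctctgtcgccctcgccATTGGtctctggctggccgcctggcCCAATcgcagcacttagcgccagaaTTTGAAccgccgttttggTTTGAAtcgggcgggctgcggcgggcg
Cdc20 (chr4:118437344-118437593, minus strand): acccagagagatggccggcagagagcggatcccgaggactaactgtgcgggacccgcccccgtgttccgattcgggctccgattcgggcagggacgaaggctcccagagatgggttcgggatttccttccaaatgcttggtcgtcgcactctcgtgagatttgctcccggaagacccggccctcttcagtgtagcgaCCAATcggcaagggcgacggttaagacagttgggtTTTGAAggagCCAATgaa
Ube2c (chr2:164769679-164769928, plus strand): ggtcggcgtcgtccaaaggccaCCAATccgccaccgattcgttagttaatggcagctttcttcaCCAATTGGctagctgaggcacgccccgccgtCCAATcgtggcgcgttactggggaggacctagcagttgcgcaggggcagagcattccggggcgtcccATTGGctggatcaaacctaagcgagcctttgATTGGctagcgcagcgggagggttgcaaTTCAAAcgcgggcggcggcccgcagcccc
Mad2l1 (chr6:66534971-66535220, plus strand): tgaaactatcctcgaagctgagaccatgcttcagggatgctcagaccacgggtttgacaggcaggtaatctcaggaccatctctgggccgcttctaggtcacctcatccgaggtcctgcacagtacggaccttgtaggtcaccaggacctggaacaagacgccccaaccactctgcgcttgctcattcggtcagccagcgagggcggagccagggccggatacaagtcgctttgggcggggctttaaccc
Cenpi (chrX:134307834-134308083, plus strand): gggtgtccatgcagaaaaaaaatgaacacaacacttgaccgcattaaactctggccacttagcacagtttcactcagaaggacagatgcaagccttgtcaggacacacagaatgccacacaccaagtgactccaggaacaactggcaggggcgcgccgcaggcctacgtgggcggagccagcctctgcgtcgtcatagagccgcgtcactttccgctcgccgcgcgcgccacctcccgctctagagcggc
In the printed stretches Top2a had 4 CHR and 6 CCAAT matches, Mki67 2 and 3, Cdc20 1 and 2, and Ube2c 1 and 6, where CCAATTGG counts as 2 overlapping boxes. Mad2l1 had 0 of either, although its signal averaged 9.63 log2 units, and no match says only that these letters are not in this window. Among the other members, Plk1, Aurka, Cenpa, Cenpf, Bub1, Spc25, Ndc80, Ttk, Cdca8, Aspm and Anln held CHR letters only after the annotated start, which are not printed.

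Top2a, the topoisomerase that untangles sister chromatids, read 10.55, 11.15 and 10.67 log2 units on arrays 1, 2 and 3. Array 2 was highest, and the gene lay 5.08 units above the cutoff (SD 0.32, n = 3; limma, adjusted p = 5.97e-05). Its other probe set read 3.21, 3.85 and 3.46, below the cutoff on every array, so the probe sets of this gene disagree. A further pair of probe sets annotated to both Top2a and Hibadh averaged 6.83 and 7.16 and was not used. Mki67, which coats mitotic chromosomes and is the standard marker of cycling cells, read 8.68, 8.74 and 8.52, a spread of 0.12 (SD, n = 3).

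The mitotic kinases were all above background, and Nek2 was the nearest to it. Plk1, the polo-like kinase of mitotic entry and spindle assembly, read 9.16, 8.17 and 8.59 on arrays 1, 2 and 3 (SD 0.50, n = 3; limma, adjusted p = 0.00108), and its call ended with the cutoff 2 units higher (limma, adjusted p = 0.0902). It was highest on array 1 and lowest on array 2, so its order over the arrays was unlike that of Top2a. Plk4, which starts centriole duplication, read 9.18 on array 1 and 9.32 on both other arrays. Aurka, the centrosomal Aurora kinase, held the value 7.79 on all 3 arrays, a value that 6 to 7 other probe sets also held on each array. Nek2, a kinase of centrosome separation, read 6.42, 6.42 and 6.10, which is 0.60 units above the cutoff (limma, adjusted p = 0.00471). It did not pass at the 99th percentile of the receptors.

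The chromosomal passenger complex corrects faulty attachments of chromosomes and then moves to the midzone for cytokinesis, and its 4 genes all passed. Birc5 (survivin), which brings the complex to the centromere, read 9.59, 9.59 and 9.80. Cdca8 (borealin) held 8.62 on all arrays. Aurkb, the catalytic kinase, read 8.06, 7.76 and 8.06, lowest on array 2. Incenp, the scaffold, was dimmer, at 7.06, 7.14 and 7.06, or 1.38 units above the cutoff. All 4 also passed with the cutoff raised by 1 unit, while Aurkb and Incenp did not with 2 units. Of all genes, 28.3% and 13.8% passed at these rises.

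Of the 7 spindle checkpoint genes, 5 passed with the cutoff raised by 2 units, beside 13.8% of all genes, and Mad1l1 and Zwilch did not. Mad2l1, the checkpoint protein that binds and holds Cdc20, read 9.24, 10.26 and 9.40 on arrays 1, 2 and 3. Array 2 stood 0.95 units above the mean of the others, and the gene was 3.92 units above the cutoff (SD 0.55, n = 3; limma, adjusted p = 0.00052). Bub1, the checkpoint kinase of the kinetochore, was likewise highest on array 2, at 9.07, 9.62 and 9.24. Bub1b (BubR1), its relative in the mitotic checkpoint complex, varied little, at 9.38, 9.41 and 9.31. Bub3, the partner that brings both to the kinetochore, read 8.55, 8.57 and 8.55, and Ttk (Mps1), the kinase that starts checkpoint signalling, held 8.56 on all arrays. Mad1l1, which recruits Mad2, read only 6.63, 6.46 and 6.46, or 0.80 units above the cutoff, and missed the 99th percentile (limma, adjusted p = 0.0533). Zwilch, of the complex that brings dynein to kinetochores, read 7.35, 7.64 and 6.61, with array 3 apart from the others (SD 0.53, n = 3). It had the largest adjusted p of the members, 0.00736 by limma, and lost its call with the cutoff 1 unit higher (limma, adjusted p = 0.213). Its array 1 value was also held by 12 other probe sets.

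Genes that trigger anaphase had means from 6.37 to 10.27. Pttg1 (securin), the inhibitor of separase, read 10.27, 10.27 and 10.28. Espl1 (separase) itself, the protease that cuts cohesin, read 6.32, 6.37 and 6.43, which is 0.66 units above the cutoff (limma, adjusted p = 0.00018). These are values of different probe sets and do not give the ratio of inhibitor to enzyme. Cdc20, the activator of the anaphase-promoting complex at the start of anaphase, held 8.56 on all arrays, and Ube2c, the ubiquitin-conjugating enzyme of that complex, held 8.07. Fzr1 (Cdh1), the activator of late mitosis and G1, was dimmer, at 6.80, 6.62 and 6.68, and lay at the cutoff when it was raised by 1 unit. On array 3 its value was held by 34 other probe sets.

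At the centromere the members ranged from the dimmest of the 42 to genes above the 90th percentile of signal. Cenpa, the histone H3 variant that defines the centromere, read 8.64, 8.58 and 8.64. Cenpk read 9.77, 9.91 and 9.77. Cenph, which with Cenpi and Cenpk forms an inner kinetochore subcomplex, was lower on array 1, at 8.34, than on arrays 2 and 3, at 9.88 and 9.91, and its SD of 0.90 (n = 3) was the largest among the members. It lay 3.66 units above the cutoff (limma, adjusted p = 0.00253) and lost its call with the cutoff 2 units higher (limma, adjusted p = 0.0796). Cenpi read 5.83, 5.94 and 5.83, only 0.15 units above the cutoff (SD 0.06, n = 3; limma, adjusted p = 0.00732). On array 2 its value was held by 88 other probe sets. Its call ended at the 99th percentile, with olfactory receptors alone as background (limma, adjusted p = 0.0541), and without array 3, in a fit that gave all genes a common spread (limma, adjusted p = 0.20).

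The outer kinetochore genes had means of 8.13 to 9.24. With the cutoff raised by 2 units, 6 of 6 genes passed, beside 13.8% of all genes. The 4 subunits of the Ndc80 complex, the microtubule attachment site of the kinetochore, averaged 9.09 for Ndc80, 8.13 for Nuf2, 8.65 for Spc24 and 9.14 for Spc25. Ndc80 and Spc25 each held the same value on all 3 arrays, and Nuf2 read 8.07, 8.26 and 8.07. Cenpe, a kinesin-like motor that moves chromosomes to the metaphase plate, read 9.27, 9.27 and 9.07. Cenpf, a large kinetochore and centrosome protein, read 9.26, 9.27 and 9.21.

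Condensin genes had a group median of 9.33. Smc2 and Smc4, the ATPase arms shared by condensin I and II, read 9.50, 9.91 and 9.64, and 10.21, 10.46 and 10.21. Ncapg, a condensin I subunit, read 9.15, 9.87 and 8.98, and these 3 genes were all highest on array 2. Ncaph, which closes the condensin I ring, held 8.45 on all arrays, and Ncapd2 read 7.62, 7.62 and 7.53. The 3 genes specific to condensin II (Ncapd3, Ncapg2 and Ncaph2) were also above background, at means of 7.74, 6.97 and 6.61. With the cutoff raised by 1 unit 1 of the 3 passed, against 5 of 5 condensin genes among the members and 28.3% of all genes. Whether these groups differ was not tested.

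The spindle and cytokinesis genes all passed with the cutoff raised by 1 unit, while Aspm and Prc1 did not with 2 units (limma, adjusted p = 0.30 and 0.526). Of all genes, 28.3% and 13.8% passed at these rises. Tpx2, which activates Aurka on spindle microtubules, read 8.88, 8.88 and 9.25, highest on array 3. Aspm, a spindle pole protein known for its role in brain size, read 7.98, 8.32 and 7.73. Prc1, which bundles the central spindle, read 7.93, 7.93 and 7.65, and Anln (anillin), the scaffold of the contractile ring, 8.17, 8.21 and 8.17. Ect2, the exchange factor that activates RhoA at the division site, read 8.12, 8.77 and 8.54, lowest on array 1 and highest on array 2.

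The members varied between arrays in an uneven way. Of the 42, 8 held one value on all 3 arrays, 17 were tied on a pair of arrays and 17 had 3 different values. Over all 19938 genes these counts were 10129, 5754 and 4055. Values identical across the arrays made up 19% of members and 50.8% of all genes, and for these the arrays give no spread of the gene's own. The limma standard error was 0.015 for each such member, from the arrays' cutoffs and the spread pooled over all probe sets. When probe sets with tied values were given the spread seen in the untied ones, all 42 members passed (limma, largest adjusted p = 0.0442, for Cenpi). The median SD of the 34 untied members was 0.11, the same as the 0.11 of untied genes in all. The arrays spanned more than 1 log2 unit for 3 members (Cenph, Mad2l1 and Zwilch), or 7.14%, and for 3.15% of all genes. Values were also shared with other probe sets: 20 members held, on at least 1 array, a value that another probe set held there. No such share is at hand for all genes, so this count is not read as a trait of the members.

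Array 2 was the highest by more than 0.1 log2 units for 12 of the 42 members (28.6%) and for 7.08% of all genes. Array 1 was so for 3 members (7.14%) and array 3 for 2 (4.76%), beside 6.88% and 7.93% of all genes. A gene with 1 value on all arrays could not lead, and such genes were 19% of members and 50.8% of all genes. Among genes whose values differed, array 2 led by this margin for 12 of 34 members and for 1412 of 9809 genes. The 12 were Top2a, Bub1, Mad2l1, Zwilch, Cenpi, Cenpk, Nuf2, Smc2, Smc4, Ncapg, Aspm and Ect2. Plk1 and Aurkb went the other way and were lowest on array 2 by the same margin. Array 2 minus the mean of the other arrays averaged 0.13 log2 units over the members and 0.00087 over all genes, with medians of 0.04 and 0. With each array centred on its median, these means were 0.09 and -0.04 and the medians -0.0015 and -0.04, and 10 members (23.8%) and 5.52% of all genes were highest on array 2. The members' mean thus exceeded their median, and the members with large differences included Mad2l1, at 0.95, Ncapg, at 0.80, and Cenph, at 0.75. Cenph, however, was low on array 1 and highest on array 3, and is not among the 12. In the deposited values of 50 DNA replication genes, array 2 was highest by more than 0.1 units for 13 (26%), beside 7.08% of all genes. The difference had a mean of 0.13 and a median of 0.03. For 93 other mitotic genes it was highest for 22 (23.7%), with a mean difference of 0.14 and a median of 0.06.

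Endothelial markers and some red cell markers moved between the same arrays. Of 14 endothelial markers 13 passed the background test, and 13 (92.9%) were lowest on array 2 by more than 0.1 units, as were 6.24% of all genes, or 7.77% with each array centred on its median. Their summed linear signal was 4518, 2522 and 4743 on arrays 1, 2 and 3, with Emcn at 10.40, 9.28 and 10.53 log2 units and Cdh5 at 9.31, 8.44 and 9.54. Red cell markers passed in 2 of 8 cases, and their summed linear signal was 1836, 360 and 365 on arrays 1, 2 and 3. Hbb-y, an embryonic globin, read 10.02, 5.31 and 5.45, highest on array 1, and Hba-x, another embryonic globin, read 8.89, 5.97 and 5.84. Neither globin passed the background test (limma, adjusted p = 0.338 and 0.198), and 3 of the 8 red cell markers held 1 value on all arrays. The 18 duct markers all passed, with summed signals of 8102, 7888 and 8053, and Calb1, the brightest, at 11.71 ± 0.03 (SD, n = 3). Of the 18, 8 held 1 value on all arrays, against 0 of 14 endothelial markers, so ties in part kept the duct sums alike. Macrophage markers passed in 1 of 9 cases, mesenchyme in 4 of 9, stroma in 2 of 8 and germ cells in 1 of 6, beside 56.1% of all genes. In each of these lists the median difference of any array from the others was 0. Ties set this median, since most markers of each list held 1 value on all arrays. These were 5 of 9 macrophage, 5 of 9 mesenchyme, 6 of 8 stroma and 5 of 6 germ cell markers. The median therefore does not show that these lists were constant between arrays. The brightest of each list were Cx3cr1 at a mean of 6.54, Cited1 at 7.71, Col1a1 at 6.75 and Nanos3 at 6.04 log2 units, and among those below the cutoff were Ptprc, Six2, Foxd1 and Ddx4. Their part in the members' differences between arrays was not tested. Each array is 1 sample, so no difference between arrays was tested.

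**Figure D4:**
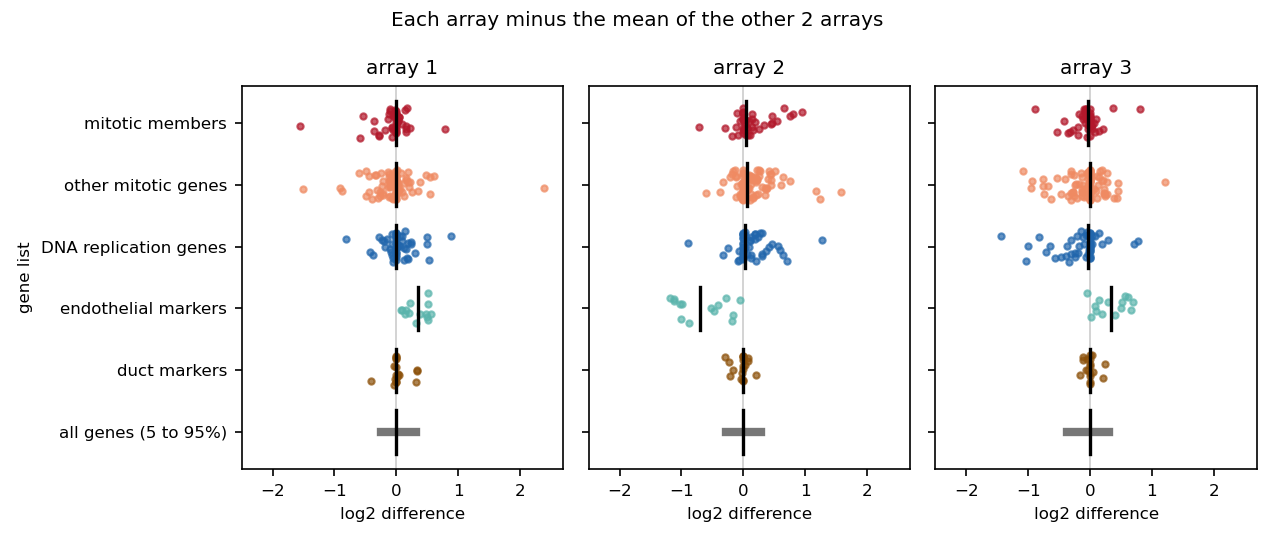
Each array minus the mean of the other arrays in log2 units (x axis) for the genes of 5 lists (points, black bars are medians), with the 5th to 95th percentile of all genes as a grey bar. On array 2 the mitotic members have a median of 0.04, with some members far to the right, while endothelial markers lie to the left, with a median of -0.69.

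Other genes of mitosis were mostly above background too. Of 93 measured genes in a wider list of 95, 89 (95.7%) passed, beside 56.1% of all genes, and their median signal was 7.65. The anaphase-promoting complex and its partners passed in 15 of 16 cases, other centromere and kinetochore genes in 26 of 29, cohesin genes in 13 of 13, other mitotic entry genes in 11 of 11 and other spindle and cytokinesis genes in 21 of 21. Anapc13, a small subunit of the anaphase-promoting complex, read 12.08 ± 0.14 and Smc3, a cohesin ATPase, 10.97 ± 0.09 (SD, n = 3 each). Oip5, a factor needed to load Cenpa, was lowest at 5.20, 5.62 and 5.20, below the cutoff. Dsn1 and Cenpp (limma, adjusted p = 0.0863 and 0.214) and Cdc26, at 8.95, 7.56 and 5.57 on arrays 1, 2 and 3 (limma, adjusted p = 0.106), also did not pass.

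Of 50 measured DNA replication genes, all 50 passed, beside 56.1% of all genes, with a median signal of 7.86 against the members' 8.62. Pcna, the sliding clamp, read 11.23 ± 0.19 and Rrm2, a ribonucleotide reductase subunit, 9.71 ± 0.21, while Cdt1, the licensing factor, was lowest at 6.10 ± 0.11 (SD, n = 3 each). With the cutoff raised by 2 log2 units, 29 of 42 mitotic members (69%) passed, 34 of 93 other mitotic genes (36.6%) and 22 of 50 replication genes (44%), beside 13.8% of all genes. Whether the lists differ in level was not tested, since their probe sets differ in affinity.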

How the data were processed

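Log2 signals of 35557 probe sets on 3 arrays were taken from the table deposited by the authors. The log2 scale was read from the range of the deposited values. Per the submitters' processing notes the tool was Affymetrix Expression Console, with no version or algorithm given in the sources used here. The platform annotation gave 1 symbol to 21789 probe sets, several to 1621 (left out) and none here to 12147. All 42 members matched the GRCm38.p6 gene table by Entrez number.

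The distance of each value from its array's cutoff entered an intercept model (limma 3.58.1 under R 4.3.3, empirical Bayes), and one-sided p-values were adjusted by Benjamini-Hochberg over 21789 probe sets, with a threshold of 0.05. The number of arrays limits the precision. All 42 members are named, and of the wider mitotic and replication lists the 2 brightest and the dimmest gene, of marker lists the brightest, with Cdh5, Emcn, Hbb-y and Hba-x. The other genes named outside the members were chosen after their values were seen. The members and lists were chosen with earlier results of these data known. Motifs were searched with Python 3.11.15. Alternatives changed the cutoff, probe set choice, scaling, moderation, low-signal filter and arrays.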

Additional observations from a re-analysis of the deposited data

How the results depend on the processing

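Over 16 alternatives to the background, the probe set, the scaling, the moderation, the filter and the arrays, 28 of the 42 members passed in every one, and the count of members ranged from 29 to 42. Values below are distances from the cutoff in log2 units. With the 2-unit rise in the cutoff, the counts fell to 34 of 93 other mitotic genes and 22 of 50 replication genes, and Nek2 lay at -1.40, Incenp at -0.62, Mad1l1 at -1.20, Zwilch at -0.51, Fzr1 at -1.01, Espl1 at -1.34, Cenpi at -1.85 and Ncapd2 at -0.12, while Plk1, Aurkb, Cenph, Aspm and Prc1, at 0.13 to 1.66, also lost their calls. With the 1-unit rise, Nek2 lay at -0.40, Mad1l1 at -0.20, Fzr1 at -0.0093, Espl1 at -0.34 and Cenpi at -0.85, while Zwilch, at 0.49, also lost its call. At the 99th percentile Nek2 lay at -0.067, Espl1 at -0.0047 and Cenpi at -0.52, and Cenpi lay at -0.0074 from the median of all probe sets. Genes at negative distances lay below the higher cutoff itself. For those still above it the call also depended on spread, and at the 2-unit rise Cenph failed at 1.66 (SD 0.90). Aurka, with 1 value on all arrays, passed there at 0.074 (limma, adjusted p = 0.0473). With the dimmest probe set per gene, Top2a lay at -2.21. That choice, or the mean of a gene's probe sets, moved the members' median signal to 8.59. Centring of arrays leaves distances from the cutoff as they were by construction. Cenpi was left out by the filter on dim probe sets. Leaving out an array gave 41 to 42 members, 86 to 91 other mitotic genes and 49 to 50 replication genes. Without array 3, limma gave all genes a common spread, so that fit does not measure the spread of each gene. Under 2 other scalings, chosen after seeing the data, 10 and 11 members were highest on array 2. No paired analysis was possible because the arrays form 1 group. Signal over background limits Cenpi, Nek2, Espl1, Mad1l1 and Fzr1, which lie nearest to the cutoff.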
